A study of Mus musculus with 120 samples.

Results

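RNA from the region named P was compared with RNA from the region named A in mouse embryos at 7.5 days post coitum (E7.5), with 2 libraries of P and 2 of A. The labels of this stage name the parts P, A, AM and ExE; P and A are read here as posterior and anterior and ExE as extra-embryonic, and AM is left as named. The members are all genes with 10 or more counts in at least 2 of these 4 libraries, 12677 of the 23154 genes of the table. At the threshold, 158 genes had a second-highest count of 10 and were kept, and 216 had one of 9 and were not; 100 genes passed through the P libraries alone and 367 through the A libraries alone, and 3018 had no count in any of the 4. All embryos were of the ICR strain, an outbred stock, and the labels give no treatment. The polyadenylated RNA was extracted with guanidine thiocyanate, and libraries were made with the transposon-based Nextera XT kit. Whether a library came from 1 embryo or from a pool is not stated, nor whether replicates were dissected separately. In both regions replicate 1 held Y-linked transcripts and replicate 2 held none, so the replicates were not repeats of the same material. Their scatter is therefore not technical alone, but the technical part was not tested. The p-values rest on a spread estimated over all embryo RNA libraries, those of E6.5 and E7.0 and the other parts of E7.5 included. The number of embryos behind each library is unknown. P was also compared with A at E7.0, and the difference between the stages was tested. In pieces of tissue, fewer cells of a type and less RNA per cell cannot be told apart.

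At this stage the primitive streak, where epiblast cells leave the epithelium to form mesoderm and endoderm, occupies the posterior side of the embryo. Wnt and FGF signals maintain the streak and the presomitic mesoderm that forms beside it, and the T-box factor T and its relatives act downstream. The anterior side holds the epiblast that becomes brain and surface ectoderm, kept from posterior fates by antagonists of Wnt and Nodal. A single outer sheet of endoderm covers both sides.

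The libraries of P held 10.3 and 11.6 M counts (M, 1e6) and those of A 16.3 and 9.37 M. P replicate 2 stood apart from the other 3: its scaling factor by TMM, edgeR's correction for library composition, was 0.664 against 1.16 to 1.27, and its 100 most abundant genes took 43.7% of its counts, against 24.4 to 28.6%. The P replicates also differed more from each other than the A replicates did, with a chi-square per degree of freedom of 135 in P and 53.6 in A. Abundant genes had positive fold changes nearly as a whole, and P replicate 2 stood above P replicate 1 in them by more than P stood above A: of the 142 genes with an average of 10 log2 CPM (CPM, counts per 1e6) or more, 99.3% had a positive fold change, with a median log2 fold change of 1.06, while the median over all members was 0.02. Among the 567 genes between 8 and 10 log2 CPM, 90.7% were positive and the median was 0.46, and the 1943 genes between 6 and 8 had a median of 0.08. The median log2 difference of P replicate 2 minus P replicate 1 was 1.40 at 10 log2 CPM and over and 0.63 between 8 and 10. Replicate 1 of each region held Y-linked transcripts, with 1240 counts of Eif2s3y in P and 2251 in A, while replicate 2 of each region had none of 4 Y-linked genes. Xist, made from the inactive X chromosome, had 36 and 468 counts in P and 23 and 751 in A. In both regions replicates 1 and 2 therefore differed in sex. The region labels were checked against T and Mixl1 for the streak, higher in both P libraries, and Otx2 for the anterior side, higher in both A libraries.

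At an adjusted p under 0.05, 30 genes were higher in P than in A, 0.237% of those tested, and 5 were lower, 0.0394%, together 0.276% (edgeR's quasi-likelihood test, Benjamini-Hochberg adjustment over all members). The genes higher in P included the presomitic mesoderm factors Tbx6 and Msgn1, the FGF feedback phosphatase Dusp6, the visceral endoderm genes Fgg and Slco4c1, and the X-linked gene Mageb16. The genes lower in P were Otx2, Alx1, Nr0b1, Utf1 and Cldn3. Of the called genes, Tbx6, Msgn1, Fgg, Slco4c1, Srgn and Triml1 had passed the filter through the P libraries alone and Alx1, Nr0b1 and Cldn3 through the A libraries alone, which fixed their direction. Without adjustment 1006 genes, 7.94%, had a p under 0.05, and 51.5% of all members had a positive fold change. In 2221 genes, 17.5%, both P libraries lay above both A libraries, and in 2287 genes, 18%, both lay below. Numbers of genes above or below A in the lists that follow stand against these shares. Calls counted in the lists likewise stand against 0.237% called higher and 0.0394% called lower. Counts of calls rested on single libraries. Without P replicate 2 there were 6 genes higher and 0 lower (243 lower at an unadjusted p under 0.05), without A replicate 1 there were 5 and 4, without P replicate 1 there were 35 and 2, and without A replicate 2 there were 78 and 6. Of the 30 genes higher, 5, 3, 20 and 20 were called again in that order. DESeq2 called 199 higher and 40 lower, and scaling to total counts, which moved the median of all genes to -0.44, left 5 higher (among them Mageb16, Fgg, Slco4c1 and Ctsc) and the same 5 lower. Mageb16 kept its call in all 9 alternatives of test, scaling, filter and design and with each of the 4 libraries left out, and Dusp6 and Fgg kept theirs with each library left out.

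**Figure D1:**
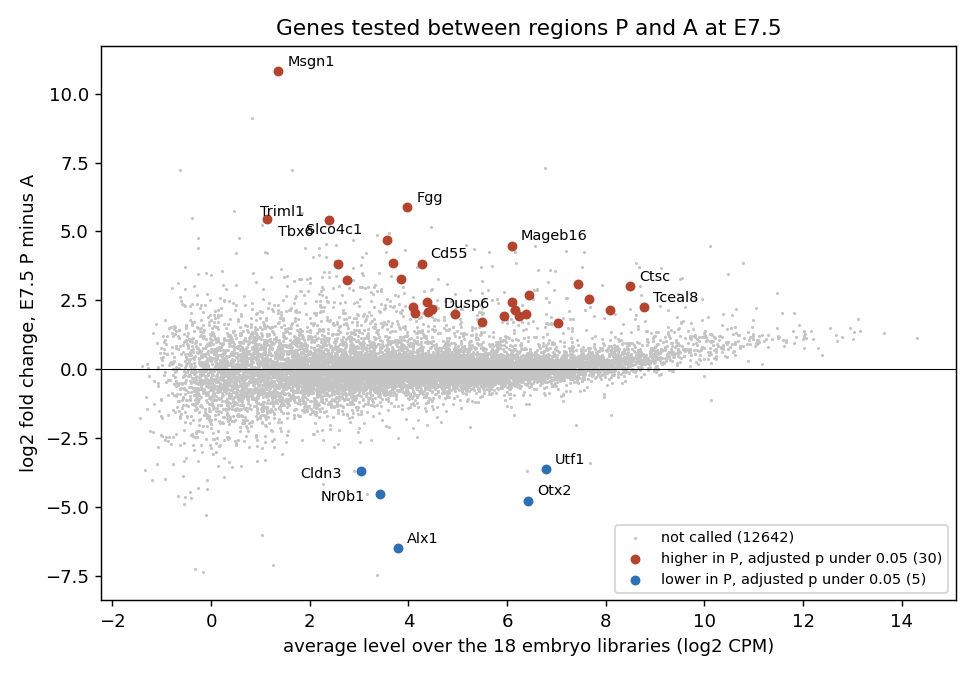
Log2 fold change of P minus A (vertical axis) against the average log2 CPM over 18 embryo libraries (horizontal axis) for the 12677 genes tested; each point is a gene. The 30 genes higher in P (red) and 5 lower in P (blue) passed an adjusted p of 0.05, and the cloud of other genes bends upward above 8 log2 CPM, where 90.7% or more of genes were positive. The plotted value of Msgn1 is a fitted one, since it had no count in A.

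Of 14 streak genes past the filter, 6 lay above A in both P libraries, 8 overlapped and none was called by edgeR. Fold changes are log2 of P over A with their standard error. Mixl1, a homeobox factor of streak mesendoderm, had 159 and 123 CPM in P, against 0.644 and 1.18 CPM in A. Its log2 fold change of 7.31 ± 1.34 was the largest among genes of at least 5 log2 CPM whose libraries did not overlap, and its adjusted p of 0.0510 missed the threshold. T, the T-box factor that drives mesoderm formation, had 257 and 441 CPM in P, against 3.81 and 44.6 CPM in A (log2 fold change 3.86 ± 1.02, adjusted p = 0.184). The A libraries were far apart in T, and both P libraries lay above both. Evx1, a homeobox factor of the posterior streak, had 7.43 and 8.08 CPM in P, against 0.545 and 1.10 CPM in A, and Fgf8, an FGF ligand of the streak, had 6.42 and 6.12 CPM in P, against 0.545 and 2.62 CPM in A. Of the 15 streak genes listed, 14 passed the filter, and 13 of these had a positive fold change, with a median of 1.62. Gsc, a factor of the anterior streak, had no count in P and 0.396 and 0.507 CPM in A. Without P replicate 2 the median of this list was 0.22, and without A replicate 2 it was 3.14.

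The presomitic mesoderm and posterior axis genes held 2 of the 30 calls, Msgn1 and Tbx6, against 0.237% of all members called higher. Both passed the filter through the P libraries alone, which fixed their direction. The list was written with earlier results of these data known. Msgn1, a bHLH factor that drives presomitic mesoderm to differentiate (chromosome 12, 11208382 to 11208948, GRCm38), had 32.8 and 5.99 CPM in P and no count in A. Against a floor of 3 counts over the A libraries its mean in P, carried mainly by P replicate 1, was at least 207-fold higher (adjusted p = 0.0374). Tbx6, the T-box factor that turns streak cells to mesoderm and away from neural fate (chromosome 7, 126781483 to 126785548), had 16.9 and 12.9 CPM in P, against 0.396 and 0.253 CPM in A, and rose by 5.44 ± 0.99 on the log2 scale (adjusted p = 0.0244). In AM, Msgn1 had 0.0684 and 0 CPM and Tbx6 0.616 and 3.45 CPM, below both P libraries. With any of the 4 libraries left out neither was called, while the log2 fold change of Tbx6 stayed between 5.04 and 5.77 over all alternatives.

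Cdx4, a caudal factor that sets posterior identity, also had no count in A and 8.28 and 3.52 CPM in P. Over the same floor its mean in P was at least 63.0-fold higher, with an adjusted p of 0.0510. Its relative Cdx1 had 40.2 and 3.13 CPM in P, against 0.0495 and 0.253 CPM in A, a difference carried mainly by P replicate 1. Wnt3a, the Wnt ligand of the tail bud, had 17.2 and 12.0 CPM in P, against 0 and 0.844 CPM in A (log2 fold change 5.22 ± 1.28, adjusted p = 0.112). Rspo3, a secreted enhancer of Wnt signalling, had 117 and 49.6 CPM in P, against 9.56 and 12.5 CPM in A (log2 fold change 2.92 ± 0.62, adjusted p = 0.0565). Aldh1a2, which makes retinoic acid in paraxial mesoderm, had 178 and 7.95 CPM in P, against 3.62 and 2.45 CPM in A, with replicate 1 of P far above the other 3 libraries. Hes7, an oscillating repressor of the segmentation clock, had 6.76 and 3.78 CPM in P, against 0.347 and 0.591 CPM in A. Of the 24 names listed, 23 were in the table and 21 passed the filter, 5 of them through the P libraries alone, so that their direction was set by the filter. All 21 were positive, 20 lay above A in both libraries, and the median was 2.69. Its value was 3.13 without P replicate 2, 3.89 without A replicate 2 and 2.23 when scaled to total counts.

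The 250 bases before the transcription start are printed for Msgn1, Tbx6, T and Otx2, because these transcription factors separated the regions and the first 3 lie downstream of Wnt signals or of each other in the streak. Sequences are from RefSeq, build GRCm38.p6, 5′ to 3′ on the gene's strand. Capitals mark matches on either strand to the T-box motif AGGTGT and the TCF/LEF motif CTTTGA (reverse complement TCAAAG), the site of the Wnt effectors. The OTX motif TAATCC was searched as well, and no matches overlapped. The Msgn1 window is chr12:11208949-11209198 on the minus strand, the Tbx6 window chr7:126781233-126781482 on the plus strand, the T window chr17:8434173-8434422 on the plus strand, and the Otx2 window chr14:48667645-48667894 on the minus strand, the farthest upstream of 4 starts.
Msgn1: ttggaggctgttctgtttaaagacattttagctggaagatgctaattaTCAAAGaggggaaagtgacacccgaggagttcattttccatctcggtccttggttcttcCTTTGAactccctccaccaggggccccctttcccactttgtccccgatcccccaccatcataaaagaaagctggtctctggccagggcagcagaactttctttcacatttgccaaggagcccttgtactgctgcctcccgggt
Tbx6: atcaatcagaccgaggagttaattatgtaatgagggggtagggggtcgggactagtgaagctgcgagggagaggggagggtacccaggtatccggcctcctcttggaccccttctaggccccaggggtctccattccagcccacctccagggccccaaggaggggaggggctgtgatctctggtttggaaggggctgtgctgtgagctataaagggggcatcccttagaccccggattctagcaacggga
T: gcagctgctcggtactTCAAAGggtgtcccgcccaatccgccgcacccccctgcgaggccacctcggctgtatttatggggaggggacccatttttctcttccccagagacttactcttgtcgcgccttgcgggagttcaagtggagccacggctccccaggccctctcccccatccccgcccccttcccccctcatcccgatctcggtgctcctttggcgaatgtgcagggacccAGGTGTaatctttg
Otx2: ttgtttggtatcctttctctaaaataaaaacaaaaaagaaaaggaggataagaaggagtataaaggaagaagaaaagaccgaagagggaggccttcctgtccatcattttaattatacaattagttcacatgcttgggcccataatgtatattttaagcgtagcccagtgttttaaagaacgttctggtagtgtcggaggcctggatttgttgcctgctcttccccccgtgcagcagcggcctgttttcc
Msgn1 held the TCF/LEF motif 1 time on each strand, T held it 1 time together with 1 T-box motif, and the windows of Tbx6 and Otx2 held none of the 3 motifs. Among the 27 genes higher in P that had a window, 18.5% held the TCF/LEF motif and 3.7% the T-box motif, against 10.7% and 9.74% of the 10128 tested genes with a window and 14.1% and 12.0% of all 27025 promoters of the same length. With 5 and 1 genes behind them, these shares are given as descriptions. Alx1, Mixl1 and Rspo3 have no window in the table.

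Hox genes, the homeobox clusters that are switched on from their 3′ ends in posterior tissue, were represented by members from the 3′ parts of their clusters. Hoxb1 had 231 and 99.9 CPM in P, against 5.50 and 3.63 CPM in A, with a log2 fold change of 5.17 ± 1.0 (adjusted p = 0.0510). Hoxa2 had 13.9 and 5.08 CPM in P, against 0.297 and 0 CPM in A. Hoxb2, next to Hoxb1 in its cluster, had 25.3 and 17.7 CPM in P, against 3.37 and 4.31 CPM in A. Of 30 Hox genes, 6 passed the filter, 2 of them through P alone. All 6 lay above A in both P libraries, with a median of 4.15, and 0 were called by edgeR, with unadjusted p from 0.000152 for Hoxb1 to 0.152 for Hoxd1. The other 24 reached at most 1.94 CPM in P and 0.844 in A, and these were not tested. Summed over the list, Hox genes had 389.8 and 150.4 CPM in P and 13.7 and 12.3 in A.

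Wnt ligands and targets mostly lay above A in P without passing the test, and antagonists lay on both sides. Of 33 genes listed, 28 passed the filter, 3 through P alone, 19 lay above A in both libraries and 3 below, and the median was 1.52. None was called by edgeR, against 0.237% of all members called higher. Wnt5b and Wnt6, further Wnt ligands, were both above A. Wnt5b had 19.4 and 18.2 CPM in P, against 1.04 and 4.90 CPM in A, and Wnt6 had 3.13 and 2.87 CPM in P, against 0.248 and 0.338 CPM in A (adjusted p = 0.0510). Tcf7, a nuclear effector and target of the pathway, had 34.1 and 29.6 CPM in P, against 9.41 and 16.5 CPM in A. The antagonist Frzb had 63.5 and 125 CPM in P, against 11.6 and 21.4 CPM in A, so it lay on the side of the ligands. The antagonist Sfrp1 lay on the other side, with 23.1 and 8.08 CPM in P, against 258 and 149 CPM in A (log2 fold change -3.69 ± 0.77, adjusted p = 0.0670).

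In the FGF pathway, Dusp6, a phosphatase that is induced by FGF signalling and dampens it (chromosome 10, 99263231 to 99267489), had 84.9 and 64.4 CPM in P, against 13.1 and 14.8 CPM in A. It rose by 2.42 ± 0.29 on the log2 scale (adjusted p = 0.00189), the 2nd smallest p of all members, and total-count scaling alone among 9 settings ended the call. Fgf15, an FGF ligand, had 125 and 43.0 CPM in P, against 8.17 and 4.56 CPM in A (log2 fold change 3.71 ± 0.75, adjusted p = 0.0541), and Fgf4 had 18.1 and 4.69 CPM in P, against 0.693 and 0.338 CPM in A (log2 fold change 4.40 ± 1.07, adjusted p = 0.103). The feedback inhibitors Spry4, Il17rd and Spred1 lay above A in both libraries, with log2 fold changes of 2.30 ± 0.53, 1.63 ± 0.44 and 1.37 ± 0.50. The receptor Fgfr2 lay below, with 14.2 and 10.7 CPM in P, against 46.2 and 16.6 CPM in A. Of 21 genes listed, 20 passed the filter, 11 lay above A in both libraries and 2 below, with a median of 1.17, and Dusp6 was the 1 called.

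Retinoic acid genes lay on both sides. Rdh10, which oxidises retinol, had 20.9 and 10.4 CPM in P, against 6.69 and 4.64 CPM in A, on the same side as Aldh1a2. Cyp26c1, which breaks retinoic acid down, had 0 and 0.391 CPM in P, against 3.07 and 0.929 CPM in A, with 3 counts in all of P, a ratio of A to P of 14.8 (95% counting interval 4.87 to 73.5). Of 14 genes listed, 13 passed, 1 of them through A alone, 5 lay above A and 2 below, with a median of -0.08. Among Notch genes the ligand Dll1 had 39.7 and 40.0 CPM in P, against 2.33 and 3.88 CPM in A, and the ligand Jag1 had 14.5 and 7.43 CPM in P, against 27.7 and 35.6 CPM in A. There 13 of 16 passed, 1 through P alone and 2 through A alone. In this list 4 lay above A and 4 below, with a median of -0.13 and 0 called by edgeR.

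Genes of the anterior neural plate mostly had lower levels in P, and 1 passed the test. Otx2, the homeobox factor required for forebrain and midbrain (chromosome 14, 48656781 to 48667644, promoter printed above), had 4.65 and 3.52 CPM in P, against 136 and 91.1 CPM in A, and fell by 4.78 ± 0.71 on the log2 scale (adjusted p = 0.0101). Its levels in AM, 95.9 and 57.7 CPM, lay above both P libraries. The log2 fold change of Otx2 was -5.01 without P replicate 1 and -4.65 without P replicate 2, and the call was lost in both cases. Hesx1, a homeobox repressor of the anterior forebrain, had 0 and 0.261 CPM in P, against 36.1 and 5.49 CPM in A; with 2 counts in all of P the ratio of A to P was 242 (95% counting interval 66.7 to 1999.7, adjusted p = 0.0810). Lhx5, a LIM factor of the forebrain, had 0.0845 and 0.261 CPM in P, against 6.09 and 1.35 CPM in A. The neural progenitor factors Sox2 and Pou3f1 also lay below A. Sox2 had 3.55 and 0.782 CPM in P, against 11.9 and 7.85 CPM in A, and Pou3f1 had 1.52 and 1.69 CPM in P, against 10.9 and 7.43 CPM in A. Of 31 genes listed, 18 passed the filter, 3 through A alone, 11 lay below A in both libraries and 1 above, with a median of -1.66, and Otx2 was called. The 1 above was Gbx2, a hindbrain factor that represses Otx2, with 52.3 and 17.7 CPM in P, against 6.19 and 8.36 CPM in A. Another 13, among them Six3 with 0 and 0.130 CPM in P and 3.96 and 0.591 CPM in A, did not pass. This median was -1.79 without P replicate 2 and -1.43 without A replicate 1.

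Epiblast genes lay below A or overlapped with it. Utf1, a chromatin factor of pluripotent cells (chromosome 7, 139943856 to 139945112), had 4.48 and 9.77 CPM in P, against 52.5 and 124 CPM in A, and fell by 3.64 ± 0.69 on the log2 scale (adjusted p = 0.0384). Its log2 fold change was -2.90 without A replicate 2 and -4.34 without P replicate 2, and the call held only without A replicate 1. Slc7a3, a carrier of cationic amino acids, had 30.7 and 30.5 CPM in P, against 287 and 357 CPM in A (log2 fold change -3.40 ± 0.94, adjusted p = 0.214). Of the DNA methyltransferases Dnmt3a had 115 and 80.1 CPM in P, against 164 and 215 CPM in A, and Dnmt3b had 488 and 1028 CPM in P, against 1220.5 and 2099.6 CPM in A. Pou5f1, a core pluripotency factor, overlapped between the regions, with 167 and 468 CPM in P, against 167 and 422 CPM in A. Of 19 genes, 16 passed, 9 lay below A and 0 above, with a median of -0.93, and Utf1 and Otx2 were called. Outside the lists, further large negative differences among genes of at least 5 log2 CPM were those of Pim2, Gstt2, Phc1 and Lgr4, none of them called. Pim2, a survival kinase, had 127 and 288 CPM in P, against 377 and 948 CPM in A. Phc1, a Polycomb protein, had 53.2 and 56.0 CPM in P, against 119 and 165 CPM in A (adjusted p = 0.0810). Gstt2, a glutathione transferase, had 13.3 and 18.9 CPM in P, against 47.3 and 37.8 CPM in A, and Lgr4, a receptor for R-spondins, had 18.8 and 13.7 CPM in P, against 58.7 and 23.6 CPM in A.

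Nr0b1, an X-linked orphan nuclear receptor of pluripotent and steroid-forming cells (chromosome X, 86191775 to 86195947), had 0.338 and 0 CPM in P, against 5.00 and 4.64 CPM in A, and fell by 4.54 ± 0.68 on the log2 scale (adjusted p = 0.0101). Without P replicate 2 its log2 fold change was -3.84, and without P replicate 1 no count was left in P. It had no count in AM and 20.9 and 36.6 CPM in ExE. Among the naive pluripotency genes Klf5 lay on the other side with 7.35 and 2.87 CPM in P, against 0.842 and 0.929 CPM in A. Of 14 listed 8 passed, 1 of them through A alone, with 2 above A, 2 below and a median of 0.61. Cldn3, a tight junction claudin, had 0.253 and 0.521 CPM in P, against 4.36 and 5.49 CPM in A, and fell by 3.70 ± 0.62 on the log2 scale (adjusted p = 0.0158). In ExE it stood at 10.5 and 18.5 CPM, above all 4 libraries. It belongs to the list of extra-embryonic ectoderm genes, of which 11 of 19 passed, Cldn3 through A alone and 1 other through P alone. In this list 3 lay above A and 4 below, and the median was -0.05. Elf5, a defining gene of that tissue, stood at 0.169 and 0 CPM in P and had no count in A.

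Alx1, a homeobox factor of head mesenchyme (chromosome 10, 103007847 to 103029549), had 0.591 and 0.391 CPM in P, against 67.5 and 25.6 CPM in A, and fell by 6.50 ± 0.92 on the log2 scale (adjusted p = 0.00613). AM held it at 96.6 and 43.5 CPM, and ExE at 0.642 and 2.80 CPM. Without P replicate 2 its adjusted p was 0.0782, and with each other library left out it stayed called; without A replicate 1 its log2 fold change was -5.68. Of the head mesenchyme factors, Alx1 included, 13 of 18 passed, 2 through A alone, 4 lay above A and 4 below, and the median was 0.48. Tcf21 had 1.10 and 0.261 CPM in P, against 2.53 and 6.67 CPM in A.

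**Figure D2:**
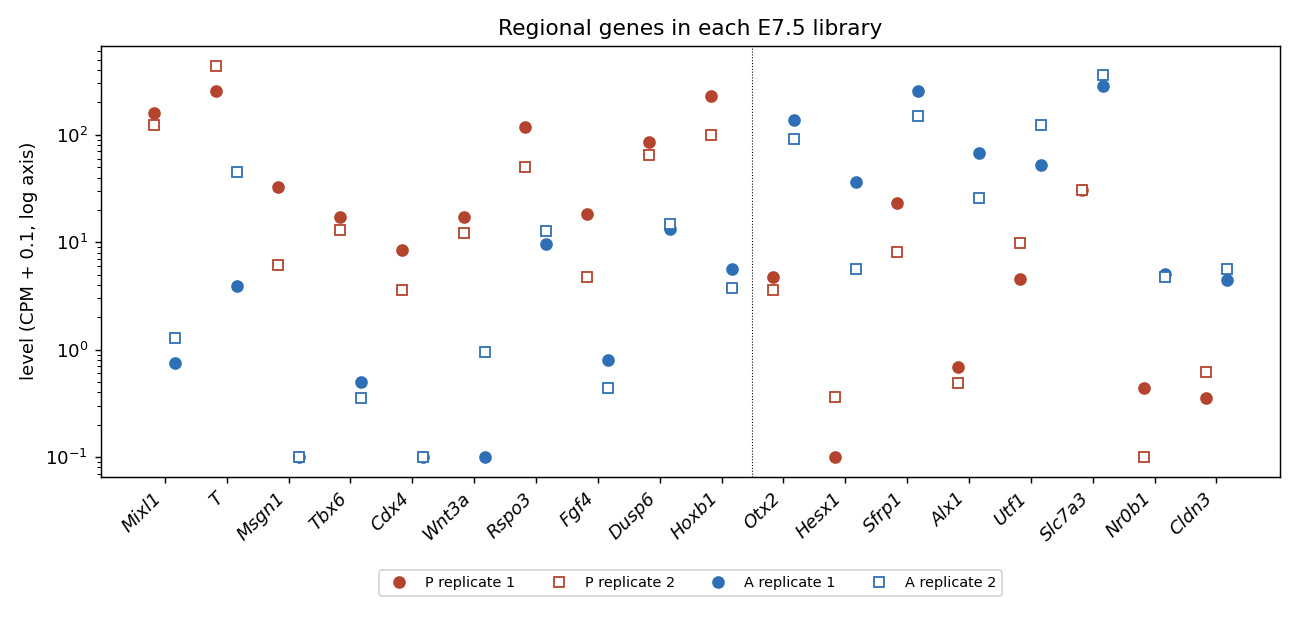
Levels (CPM plus 0.1, logarithmic axis) of 10 genes higher and 8 genes lower in P, with the 2 P libraries (red) left of the 2 A libraries (blue) for each gene; circles are replicate 1 and squares replicate 2, and a point at 0.1 has no count. The 2 groups of libraries do not overlap for any gene shown, and the P replicates of Msgn1 and Fgf4 lie further apart than those of Mixl1 or Dusp6.

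The genes of anterior signalling tissue held 2 calls of opposite direction, Amot and Otx2. Amot, which regulates the Hippo effector Yap and is expressed in visceral endoderm (chromosome X, 145446424 to 145505966), had 93.1 and 119 CPM in P, against 16.7 and 31.7 CPM in A, and rose by 2.14 ± 0.36 on the log2 scale (adjusted p = 0.0158). Cer1, a secreted antagonist of Nodal, BMP and Wnt, had 25.9 and 11.2 CPM in P, against 102 and 49.5 CPM in A (log2 fold change -2.02 ± 1.03, adjusted p = 0.713), and 950.4 and 509 CPM in AM. Shisa2, an inhibitor of Wnt and FGF receptors, had 2.53 and 2.35 CPM in P, against 20.4 and 10.5 CPM in A. Of 14 genes listed 10 passed, 1 of them through A alone, 3 lay above A and 5 below, with a median of -0.57. In the Nodal pathway Lefty2, a feedback inhibitor made in the streak and its mesoderm, had 86.5 and 177 CPM in P, against 9.41 and 4.05 CPM in A (log2 fold change 4.27 ± 1.35, adjusted p = 0.319), and 13 of 14 genes passed with a median of -0.22, 2 above A and 2 below.

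Other mesoderm genes lay on both sides. Among lateral, extra-embryonic and cardiac mesoderm genes 19 of 24 passed, 4 lay above A and 4 below. Of those that passed, 3 did so through A alone, Gata5 among them, so that their direction was set by the filter. The list median was 0.65, which became -0.42 without P replicate 2 and -0.03 with total counts. Pdgfra, a receptor of early mesoderm, had 80.6 and 46.8 CPM in P, against 29.4 and 21.6 CPM in A. Myl7, an atrial myosin light chain of the first heart cells, had 9.12 and 31.1 CPM in P, against 70.4 and 102 CPM in A, and Gata5, a cardiac and endoderm factor, had 0.591 and 0.912 CPM in P, against 3.57 and 4.56 CPM in A. BMP pathway genes had a median of 0.41, which became -0.38 without P replicate 2 and -0.28 with total counts, with 15 of 18 passing, 1 above A and 1 below: Bmp4 had 11.1 and 22.4 CPM in P, against 8.91 and 8.44 CPM in A. Its target Msx2 had 10.6 and 46.0 CPM in P, against 14.9 and 11.0 CPM in A, overlapping between regions. Blood and vessel genes were low in both, at a summed 19.2 and 43.1 CPM in P and 49.3 and 31.0 in A, with 9 of 16 passing and a median of 0.07, which became -1.57 without P replicate 2 and 0.90 without P replicate 1. None of the genes of these 3 lists was called by edgeR, against 0.276% of all members.

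The visceral endoderm, the outer layer that absorbs and exports nutrients, held 2 of the 30 calls, against 0.237% of all members called higher. Fgg, the gamma chain of fibrinogen (chromosome 3, 83007724 to 83015056), had 6.84 and 14.5 CPM in P, against 0 and 0.422 CPM in A, and rose by 5.88 ± 0.81 on the log2 scale (adjusted p = 0.00536). Slco4c1, an organic anion carrier, had 6.59 and 14.6 CPM in P, against 0.248 and 0.591 CPM in A, and rose by 4.70 ± 0.62 on the log2 scale (adjusted p = 0.00410). Both genes were put on the list with earlier results of these data known and passed the filter through P alone. The log2 fold change of Fgg was 4.57 without A replicate 1 and 5.21 without P replicate 2. That of Slco4c1 was 4.08 and 3.98 in that order, and 5.35 without A replicate 2; without A replicate 1 it lost its call. Fgb, the beta chain of fibrinogen, had 7.77 and 27.8 CPM in P, against 0 and 1.94 CPM in A (log2 fold change 4.35 ± 1.04, adjusted p = 0.112). Of the plasma protein genes, Afp had 68.4 and 380.0 CPM in P, against 0.347 and 23.4 CPM in A, and Trf had 49.3 and 274 CPM in P, against 1.63 and 15.2 CPM in A. Dab2, an endocytic adaptor, had 151 and 957 CPM in P, against 20.6 and 92.9 CPM in A, and the apolipoprotein gene Apoa1 had 120.3 and 2690.3 CPM in P, against 1.14 and 195 CPM in A, where 1 P library lay below 1 A library. In each of these 5 genes P replicate 2 held the most and A replicate 1 the least.

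Over the 34 visceral endoderm genes 31 passed, 3 of them through P alone. Of the 31, 20 lay above A in both libraries, none below, and the median was 3.29, with 2 called. The summed level was 2961 and 18571 CPM in P and 1050.0 and 2198 CPM in A, so that the P libraries differed more from each other than P replicate 1 did from A replicate 2. AM held 7308 and 19932 CPM and ExE 28606 and 37894 CPM. At E7.0 the sums were 6350.3 and 11712 CPM in P and 5722 and 10457 CPM in A. In A replicate 1, 9 of the 34 genes had no count, and Apoa4, Fgb and Fgg were among them. The list median was 1.36 without P replicate 2 and 6.62 without A replicate 2. The 2 members with a negative fold change overlapped between regions: Lrp2, an endocytic receptor, had 10.6 and 39.6 CPM in P, against 55.3 and 34.8 CPM in A, and Cyp26a1, which degrades retinoic acid, had 9.21 and 72.7 CPM in P, against 133 and 31.8 CPM in A. The part of the endoderm share of each library in the results for other genes was not tested.

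**Figure D3:**
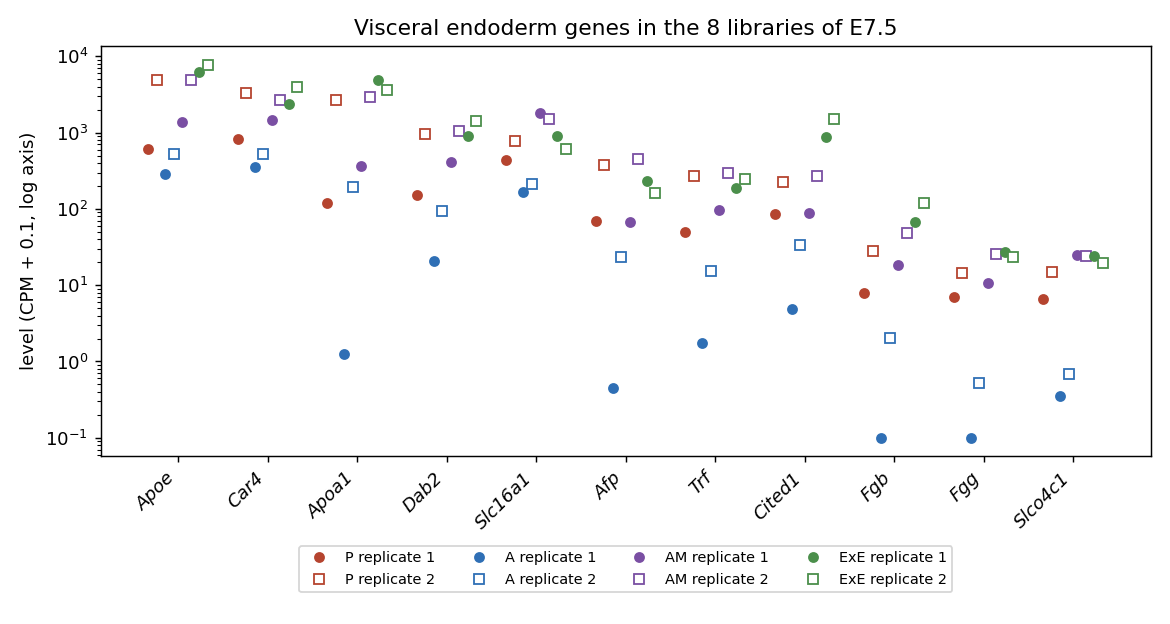
Levels (CPM plus 0.1, logarithmic axis) of 11 visceral endoderm genes in the 8 libraries of E7.5, from left to right for each gene P (red), A (blue), AM (purple) and ExE (green); circles are replicate 1, squares replicate 2, and a point at 0.1 has no count. A replicate 1 is the lowest of the 8 libraries for each of these genes, and P replicate 2 lies above P replicate 1.

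Genes listed for definitive endoderm and node mostly lay above A in P, with 1 call. Cpn1, a carboxypeptidase subunit, had 13.3 and 22.9 CPM in P, against 0.891 and 2.95 CPM in A, and rose by 3.27 ± 0.56 on the log2 scale (adjusted p = 0.0173). Its log2 fold change was 2.56 without A replicate 1 and 4.33 without A replicate 2, and the call was lost without A replicate 1 and without P replicate 2. Foxa1, an endoderm pioneer factor, had 6.51 and 4.04 CPM in P, against 0.149 and 1.44 CPM in A, and Sox17, the endoderm SRY-box factor, had 16.0 and 20.6 CPM in P, against 0.842 and 8.53 CPM in A. Spink1, a secreted trypsin inhibitor, had 197 and 1512 CPM in P, against 0.545 and 76.8 CPM in A, a spread that left its adjusted p at 0.555. At E6.5 Spink1 already had 1118 and 2230 CPM in the part named Epi and 1864 and 1792 CPM in ExE. Cpn1 had 16.3 and 15.9 CPM in Epi at E6.5. Which endoderm held the transcripts of this list was not tested. Of 20 names 19 were in the table and 14 passed, 8 lay above A and 1 below, and the median was 1.23. Noto, a node factor, overlapped between regions, with 18.2 and 2.08 CPM in P and 2.33 and 21.1 CPM in A. Levels of Sox17 in AM were 76.1 and 83.0 CPM, above both regions.

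Surface proteins and carriers were among the remaining calls. Cd55, a complement regulator, had 18.8 and 13.2 CPM in P, against 0.792 and 1.52 CPM in A, and rose by 3.82 ± 0.64 on the log2 scale (adjusted p = 0.0158). Cd59a, another, had 30.5 and 49.9 CPM in P, against 7.23 and 13.2 CPM in A, and rose by 1.98 ± 0.38 on the log2 scale (adjusted p = 0.0378). Both lay above A in each P library. Slc39a8, a zinc and manganese importer, had 76.7 and 78.4 CPM in P, against 15.1 and 25.5 CPM in A, and rose by 1.94 ± 0.36 on the log2 scale (adjusted p = 0.0283). Slc16a10, a carrier of aromatic amino acids, had 8.45 and 13.3 CPM in P, against 2.13 and 2.45 CPM in A, and rose by 2.24 ± 0.37 on the log2 scale (adjusted p = 0.0158). Lrp8, a receptor for reelin and selenoprotein P, had 26.0 and 11.3 CPM in P, against 1.29 and 2.70 CPM in A, and rose by 3.25 ± 0.60 on the log2 scale (adjusted p = 0.0248). Sepp1 (Selenop), which encodes selenoprotein P, had 88.4 and 273 CPM in P, against 19.2 and 43.2 CPM in A, and rose by 2.53 ± 0.50 on the log2 scale (adjusted p = 0.0447). Without P replicate 2 the log2 fold change of Sepp1 was 1.46, without P replicate 1 3.13 and without A replicate 2 3.23; that of Lrp8 was 2.52 without P replicate 1 and 3.85 without A replicate 2. Dpp4 and Slc7a9, of the epithelial brush border, and Fgfbp1 had large differences without a call. Dpp4, a peptidase, had 58.8 and 106 CPM in P, against 0.0990 and 7.60 CPM in A. Slc7a9, an amino acid carrier, had 9.72 and 43.3 CPM in P, against 0.0990 and 2.45 CPM in A. Fgfbp1, which releases FGFs from the matrix, had 21.0 and 14.2 CPM in P, against 0.446 and 1.52 CPM in A. Cd55 and Lrp8 overlap antisense transcripts in RefSeq, and Cd59a has a close paralog, so their counts may hold reads of other genes.

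Vangl1, a planar cell polarity protein (16.9 and 29.3 CPM in P, against 5.40 and 5.57 CPM in A), rose by 2.07 ± 0.34 on the log2 scale (adjusted p = 0.0158). Dsg2, a desmosomal cadherin (38.3 and 35.6 CPM in P, against 12.5 and 10.2 CPM in A), rose by 1.70 ± 0.30 on the log2 scale, the desmosome being a junction of epithelia (adjusted p = 0.0209). Rai14 and Lcp1 encode actin-binding proteins. Rai14 had 65.7 and 65.0 CPM in P, against 15.5 and 17.6 CPM in A, and rose by 1.98 ± 0.37 on the log2 scale. Lcp1 had 9.97 and 18 CPM in P, against 1.88 and 3.29 CPM in A, and rose by 2.44 ± 0.44 on the log2 scale. Srgn, the proteoglycan core serglycin, had 3.55 and 6.25 CPM in P, against 0.198 and 0.507 CPM in A, and rose by 3.85 ± 0.69 on the log2 scale, a value of 3.19 without A replicate 1 and 4.54 without A replicate 2. Adjusted p for these last 3 were 0.0255, 0.0233 and 0.0230. The tetraspanin Tspan13 had 251 and 217 CPM in P, against 83.0 and 63.3 CPM in A, the smallest rise of a called gene at 1.68 ± 0.30, and Ggta1, which adds alpha-galactose to glycans, had 13.8 and 16.2 CPM in P, against 2.82 and 4.56 CPM in A, and rose by 2.03 ± 0.41 on the log2 scale. Their adjusted p were 0.0209 and 0.0460. Lgalsl, a galectin-like gene, had 46.6 and 33.1 CPM in P, against 8.57 and 8.86 CPM in A, and rose by 2.19 ± 0.34 on the log2 scale (adjusted p = 0.0101).

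Among intracellular enzymes, Ctsc, the lysosomal cathepsin C, had 130.4 and 461 CPM in P, against 27.3 and 45.8 CPM in A, and rose by 3.02 ± 0.51 on the log2 scale. Sgk1, a kinase induced by serum and steroid hormones, had 98.3 and 205 CPM in P, against 10.2 and 25.3 CPM in A, and rose by 3.10 ± 0.54 on the log2 scale. Sat1, which acetylates polyamines, had 116 and 74.5 CPM in P, against 17.1 and 26.3 CPM in A, and rose by 2.14 ± 0.43 on the log2 scale. Their adjusted p were 0.0158, 0.0190 and 0.0460. Without P replicate 2 the log2 fold change of Ctsc was 1.79 (adjusted p = 0.133), and without P replicate 1 it was 3.66; without A replicate 1 its adjusted p was 0.402. Sgk1 was at 2.43 without P replicate 2 and 3.89 without A replicate 2. Tceal8, a gene related to transcription elongation factor A, had the highest average level of the called genes, at 984 and 1562 CPM in P, against 278 and 255 CPM in A (log2 fold change 2.25 ± 0.41, adjusted p = 0.0230). Tceal8, Ctsc and Amot lie in the range of 8 to 10 log2 CPM, in which 90.7% of genes were positive.

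Mageb16, an X-linked member of the Mage family (chromosome X, 79623231 to 79671435), had the smallest p of all members, with 10.3 and 15.9 CPM in P, against 0.495 and 0.675 CPM in A (log2 fold change 4.49 ± 0.48, adjusted p = 0.000756). Its levels were 18.7 and 18.8 CPM in AM and 97.1 and 206 CPM in ExE, so A stood lowest of the 4 parts. Sfmbt2, an imprinted Polycomb gene needed in trophoblast, had 7.35 and 8.86 CPM in P, against 1.49 and 2.87 CPM in A (log2 fold change 1.92 ± 0.38, adjusted p = 0.0460). It stood at 113 and 91.8 CPM in ExE, and it overlaps many miRNA genes in RefSeq. Triml1 had 1.27 and 2.48 CPM in P, against 0 and 0.0844 CPM in A; with 1 count in all of A the ratio of P to A was 55.8 (95% counting interval 9.37 to 2269, adjusted p = 0.0460). The long RNA 5730457N03Rik (Evx1os in RefSeq, chromosome 6, 52308389 to 52314832) overlaps Evx1 and had 15.4 and 19.2 CPM in P, against 0.743 and 1.77 CPM in A, and rose by 3.80 ± 0.67 on the log2 scale (adjusted p = 0.0209), a value of 4.52 without A replicate 2. The sources used here do not give the strand setting of the counting, so its reads and those of Evx1 cannot be told apart.

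**Figure D4:**
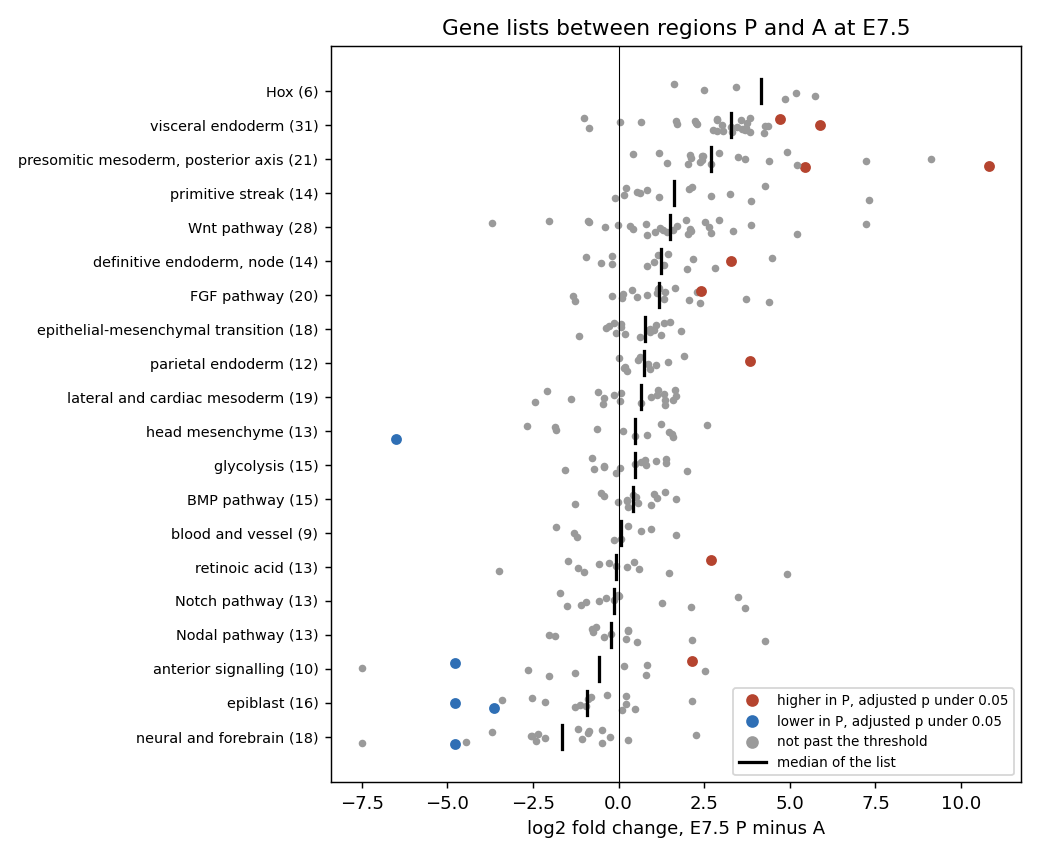
Log2 fold change of P minus A (horizontal axis) of the members of 20 gene lists that passed the filter, with their number in brackets; each point is a gene, red and blue points passed an adjusted p of 0.05, and black bars are list medians. Medians run from 4.15 for Hox genes to -1.66 for neural and forebrain genes, and most points are grey.

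Over the 27 lists, 313 of 421 genes passed the filter and 14 of these were called, beside 0.276% of all members. The lists were chosen with earlier results of these data known, so this count is no evidence about the lists. Epithelial-mesenchymal transition genes had a median of 0.76, with all 18 passing, 7 above A and 1 below. Fn1, the matrix protein fibronectin, had 317 and 380.5 CPM in P, against 68.5 and 127 CPM in A, and the keratin Krt8 had 313 and 674 CPM in P, against 168 and 224 CPM in A. Krt18, its partner, had 290.5 and 683 CPM in P, against 153 and 188 CPM in A. Parietal endoderm genes had 12 of 13 past the filter, Srgn through P alone, 6 above A, 0 below and a median of 0.74, and Srgn was the 1 called. Primordial germ cell genes had 7 of 11 past the filter, 2 above and 2 below, with a median of 0.50: Ifitm1, an interferon-induced membrane gene of the posterior epiblast, had 364 and 428 CPM in P, against 131 and 119 CPM in A. Glycolysis genes had 15 of 16 past the filter and a median of 0.47, and their summed level was 25292 and 74596 CPM in P and 22522 and 26197 CPM in A, so P replicate 2 alone stood out. Without it the median was -0.31. Immediate early genes (-0.57, 8 of 12 past the filter) and p53 targets (-0.16, 12 of 12) had 0 called by edgeR, with 1 and 4 above A and 4 and 3 below. Of the p53 targets 2 passed through A alone, which fixed their direction. Cdkn1a, the cell cycle inhibitor induced by p53, had 57.2 and 40.1 CPM in P, against 16.4 and 21.4 CPM in A (adjusted p = 0.226). Of 15 genes of decidua, adult blood and leukocytes 4 passed, the 6 adult globin genes had no count in P or A, and the list's summed level was 13.4 and 15.4 CPM in P and 11.0 and 16.7 CPM in A.

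At E7.0, in 2 P and 2 A libraries of their own from the same strain, the same contrast called 1 gene higher (Grrp1, 0.00789%) and 0 lower by edgeR, with 251 and 159 at an unadjusted p under 0.05 and 14 and 0 by DESeq2. Of the 30 genes higher in P at E7.5, 17 had a positive fold change at E7.0, against 47.4% of all members, and the median log2 fold change was 2.49 at E7.5 and 0.26 at E7.0. All 5 genes lower in P at E7.5 were negative at E7.0, where 47.4% of all members were positive, with medians of -4.54 and -1.40. None of them was called at E7.0. Alx1, Nr0b1 and Cldn3 had at most 2.26 CPM in P or A at E7.0, and Otx2 was at -0.55 ± 0.59. The streak list had a median of 2.28 at E7.0 and the visceral endoderm list 0.36. Mixl1 had 701 and 399.5 CPM in P, against 60.9 and 12.7 CPM in A at E7.0 (log2 fold change 3.89 ± 1.09), and Tbx6 0.735 and 0.251 CPM in P, against 0.150 and 0.141 CPM in A.

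The difference between stages was itself tested. P minus A was higher at E7.5 than at E7.0 in 4 genes (0.0316%) and lower in 0 by edgeR, with 334 and 208, together 4.28%, at an unadjusted p under 0.05, and DESeq2 called 18 and 3. The difference of the log2 fold changes was 4.73 ± 0.61 for Mageb16 (adjusted p = 0.00865), 3.38 ± 0.50 for Amot (adjusted p = 0.0257), 6.14 ± 0.99 for Fgg (adjusted p = 0.0375) and 4.95 ± 0.79 for Slco4c1 (adjusted p = 0.0375). At E7.0 Mageb16 had 20.6 and 27.2 CPM in P, against 34.0 and 22.2 CPM in A, and Fgg had 13.7 and 17.1 CPM in P, against 21.8 and 14.8 CPM in A, so that the regions overlapped there. Amot had 200.1 and 184 CPM in P, against 481 and 426 CPM in A at E7.0, the opposite order of E7.5. Slco4c1 had 4.69 and 8.15 CPM in P, against 6.29 and 8.89 CPM in A at E7.0. Fgg and Slco4c1 had passed the filter through the P libraries of E7.5 alone, which fixed their direction at E7.5. In all 4 genes both A libraries of E7.5 stood below both A libraries of E7.0, and in Mageb16 and Amot both P libraries did as well. Without A replicate 1 none of the 4 was called (264 genes higher at an unadjusted p under 0.05), without P replicate 2 Mageb16 alone was, and without A replicate 2 there were 17. For the presomitic genes Msgn1 and Tbx6 no difference between stages was called.

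**Figure D5:**
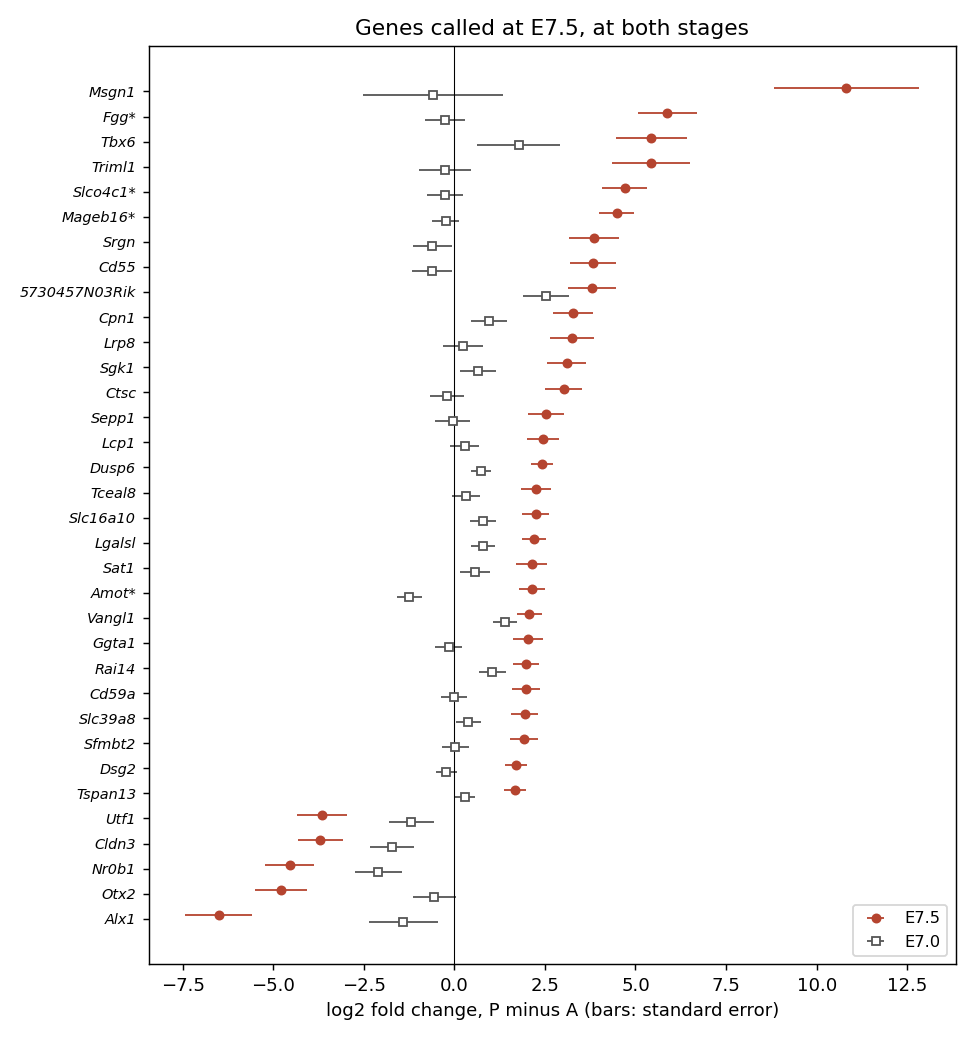
Log2 fold change of P minus A with its standard error for 34 of the 35 genes called at E7.5 (vertical axis, one gene per row), at E7.5 (red circles) and E7.0 (open squares). An asterisk marks the 4 genes, Fgg, Slco4c1, Mageb16 and Amot, whose change between stages had an adjusted p under 0.05; the 5 genes lower in P are negative at both stages.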

How the data were processed

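The authors deposited whole-number counts per gene for 18 embryo RNA libraries in 9 groups of 2. CASAVA 1.8, TopHat2 2.0.9, BWA and the mm10 build appear in the submitters' processing notes, without roles; the sources used here do not give the counting tool, annotation or strand setting. Columns were matched by name, and 6 columns that matched no sample were not used. Totals in P and A were 9.37 to 16.3 M counts; the floor of 3 counts and counting intervals cover counting error only. Genes with 10 counts in 2 of the 4 libraries were tested with edgeR 4.0.16 (R 4.3.3; TMM, robust quasi-likelihood fit, Benjamini-Hochberg). All 18 libraries entered 1 fit, so that groups share an estimate of spread. CPM is counts per 1e6 after TMM scaling; the standard error is the log2 fold change over the square root of F. The test was checked on simulated counts. Alternatives were DESeq2 1.42.0, other scalings and filters, a fit of 4 libraries, a replicate block and omission of single libraries. Gene positions came from RefSeq (GRCm38.p6). The members and 27 gene lists were chosen with earlier results of these data known. Genes named were all called genes, the 10 largest differences in each direction (at least 5 log2 CPM, libraries not overlapping), and from each list the 8 smallest p, the 4 highest levels and members not past the filter; others named, such as Lrp2, Gbx2 and Noto, were chosen after their values were seen. Some genes that the rule would name are not reported here.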

Additional observations from a re-analysis of the deposited data

Results flagged for a closer look

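For 4 genes P minus A differed between E7.5 and E7.0 in the test of that difference (edgeR's quasi-likelihood test, interaction contrast, adjusted over 12677 genes). The difference in log2 fold change was 4.73 ± 0.61 for Mageb16 (adjusted p = 0.00865), 3.38 ± 0.50 for Amot (adjusted p = 0.0257), 6.14 ± 0.99 for Fgg (adjusted p = 0.0375) and 4.95 ± 0.79 for Slco4c1 (adjusted p = 0.0375). Over 11 alternatives the call held in 9 for Mageb16, with adjusted p from 4.90e-08 to 0.152, in 8 for Amot (1.98e-07 to 0.291), in 8 for Fgg (1.98e-07 to 0.213) and in 7 for Slco4c1 (2.79e-06 to 0.435). Each is positive at E7.5. Fgg and Slco4c1 had passed the filter through the P libraries of E7.5 alone, which fixed their direction at that stage. At E7.0 the log2 fold change was -1.24 ± 0.35 for Amot. Those of Mageb16 (-0.24 ± 0.37), Fgg (-0.26 ± 0.56) and Slco4c1 (-0.25 ± 0.50) at E7.0 were smaller in size than their standard errors. All 4 had higher levels in ExE, AM and P than in A at E7.5. Amot stood at 399 and 256 CPM in ExE, 195 and 226 CPM in AM and 16.7 and 31.7 CPM in A. Slco4c1 stood at 23.8 and 19.4 CPM in ExE, 24.7 and 24.0 CPM in AM and 0.248 and 0.591 CPM in A. The list of visceral endoderm genes holds Fgg and Slco4c1. Its summed level at E7.5 was 2961 and 18571 CPM in P and 1050.0 and 2198 CPM in A. At E7.0 it was 6350.3 and 11712 CPM in P and 5722 and 10457 CPM in A, overlapping between regions. The part of this level in these results was not tested.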

How the results depend on the processing

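Genes higher in P numbered 30 with edgeR, 199 with DESeq2, 5 with total counts, 48 without a filter, and 5 to 78 with a library left out. Genes lower in P numbered 5, against 40 with DESeq2 and 0 to 6 with a library left out. Genes with a higher difference at E7.5 than at E7.0 numbered 4, against 18 with DESeq2, 0 with total counts and 0 to 17 with a library left out; those with a lower difference numbered 0, against 3 with DESeq2 and 0 with each library left out. Unadjusted p under 0.05 gave 334 and 208 such genes. DESeq2 and the fit without a filter held all 30 genes higher in P, and DESeq2 all 5 lower. The fit of the 4 libraries alone called 23 higher and 5 lower, of which 8 and 2 were among those.

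The replicate numbers are shared by the regions, but nothing says that a number marks the same embryos. Deviations of same-numbered P and A libraries correlated at 0.439 over genes. With a replicate block there were 125 genes higher and 15 lower in P, and the difference between stages was called in 3 genes, higher in each. With the replicate block in the 4 libraries alone there were 634 and 378, including all 35 called without a block. That fit of 4 libraries has almost no residual degrees of freedom, so its counts lend no support to the calls. Among named genes uncalled without the block, 17 were called with it in the fit of all 18 libraries, including Mixl1, Hoxb1, Cdx4, Cdx1, Rspo3, Wnt6 and Fgb.

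Of 1573 values for the 118 genes named and the 4 differences between stages, 1263 kept their direction and side of the threshold, 149 lost and 153 gained a call, and 8 turned. These 8 belong to 4 uncalled genes. With single libraries left out, log2 fold changes ran from -0.34 to 1.83 for Msx2, from -3.20 to 0.31 for Cyp26a1, from -2.47 to 2.13 for Noto and from -0.86 to 0.92 for Pou5f1. Noto was at 0.035 with the replicate block in 4 libraries, and Pou5f1 at -0.56 with total counts. No called gene changed sign in any alternative. With 2 libraries per region and chi-squares per degree of freedom of 135 in P and 53.6 in A, the number of libraries limits the precision of every value. The causes of these changes were not tested.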
